A study of Mus musculus with 4 samples.

Results

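Transcripts of 10 circadian clock genes were followed in brain septal tissue of TCRb-/- mice, which have no T cell receptor beta chain, and of wild-type (WT) mice. The genes were Arntl, Clock, Per1, Per2, Per3, Ciart, Nr1d1, Nr1d2, Dbp and Tef, found by their symbols, and all 10 were among the 15409 gene rows of each library. Mice of both genotypes were confined in a DecapiCone, a plastic restrainer, for 30 min per session over 3 days, and death followed 1.5 h after the final restraint, so that no group was unstressed. The labels give 4 libraries, TCRb-/- 1 and 2 and WT 1 and 2, each from the pooled tissue of 4 to 5 mice, and the number is that of the experiment, which the labels call a batch. The sources used here give no strain, age, sex or hour of day of the dissections. A replicate was therefore a pool of animals, and each genotype had 1 pool in each experiment.

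The circadian clock is a transcriptional feedback loop that runs in nearly all cells of the body, neurons and glia included. The proteins of Arntl (also called BMAL1) and Clock bind E-boxes and switch on the Per and Cry genes, whose products return to the nucleus and repress Arntl and Clock. A second loop runs through Nr1d1 and Nr1d2 (REV-ERB alpha and beta), which repress Arntl, and the outputs Dbp and Tef act on D-boxes in further genes. Many of these transcripts rise and fall over the day, and Per1 is also a textbook target of glucocorticoid and cAMP signalling.

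The libraries held between 19988137 and 26210790 reads, from which whole read counts were recovered, and expression is given as CPM (reads of the gene scaled to a common library total). Trbc2, a constant segment of the deleted receptor chain, had 169 and 86 reads in WT and 0 in each TCRb-/- library, where up to 0.122 and 0.150 CPM remain possible. Of 7 septal markers, 6 were listed, with a summed level of 163 and 146 CPM in experiment 1 (TCRb-/- and WT) and of 210.2 and 177 CPM in experiment 2, and 2 of the 6 were called higher in experiment 2. The summed level of 5 markers of septal cholinergic neurons went the other way, at 81.3 and 102.4 CPM in experiment 1 and 75.6 and 92.3 CPM in experiment 2. Of these 5, 4 had a difference below 0 and 1 above 0, and 1 was called lower and 0 higher in experiment 2. Markers of neighbouring regions separated the experiments. Summed over 8 genes, striatal markers stood at 2679 and 2410 CPM in experiment 1 (TCRb-/- and WT) and at 567 and 1385 CPM in experiment 2. The 10 choroid plexus markers stood at 2129 and 1303 CPM in experiment 1 and at 6833 and 4158 CPM in experiment 2. The 6 thalamic markers stood at 340.0 and 329 CPM in experiment 1 and at 692 and 447 CPM in experiment 2. The 7 cortical and hippocampal markers stood at 222 and 282 CPM in experiment 1 and at 63.3 and 59.4 CPM in experiment 2.

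Promoter sequence is shown for the members whose 250 bases upstream of an annotated start carried an E-box or a D-box, the elements through which clock proteins act on one another. RefSeq windows (GRCm38.p6) were at hand for 9 of the 10 members, 14 windows in all, and Per2 had none. An E-box, CACGTG on either strand, was present in windows of Ciart, Tef and Per1, 3 of the 9 members with a window. It was present in 6.02% of the 32851 promoter windows of this length and in 6.86% of the 27025 genes with such windows. Both windows of Tef held 1 E-box, and only the first is printed. A D-box, TTATGTAA or TTACGTAA on either strand, was present in Per3, in 0.931% of all windows and in 1.1% of these genes. The letters of the motifs are in capitals below, and each window is printed 5′ to 3′ on the strand of its gene.
Ciart, chr3:95882229-95882478, minus strand, with 3 E-boxes: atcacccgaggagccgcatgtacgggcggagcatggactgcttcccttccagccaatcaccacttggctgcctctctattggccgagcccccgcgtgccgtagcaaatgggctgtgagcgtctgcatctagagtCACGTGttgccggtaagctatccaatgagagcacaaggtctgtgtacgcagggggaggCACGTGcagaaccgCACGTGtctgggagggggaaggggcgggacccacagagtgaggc
Tef, chr15:81802423-81802672, plus strand, with 1 E-box: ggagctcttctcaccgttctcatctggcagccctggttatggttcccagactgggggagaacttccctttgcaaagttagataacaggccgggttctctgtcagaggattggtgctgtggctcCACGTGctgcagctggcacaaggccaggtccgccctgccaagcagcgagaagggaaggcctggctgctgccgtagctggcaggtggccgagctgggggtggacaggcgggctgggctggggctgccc
Per1, chr11:69098699-69098948, plus strand, with 1 E-box: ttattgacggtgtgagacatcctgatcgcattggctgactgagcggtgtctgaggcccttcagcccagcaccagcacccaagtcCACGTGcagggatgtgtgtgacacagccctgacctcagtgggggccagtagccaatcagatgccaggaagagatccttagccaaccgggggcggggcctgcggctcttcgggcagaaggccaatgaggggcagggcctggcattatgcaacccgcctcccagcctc
Per3, chr4:151044666-151044915, minus strand, with 2 D-boxes: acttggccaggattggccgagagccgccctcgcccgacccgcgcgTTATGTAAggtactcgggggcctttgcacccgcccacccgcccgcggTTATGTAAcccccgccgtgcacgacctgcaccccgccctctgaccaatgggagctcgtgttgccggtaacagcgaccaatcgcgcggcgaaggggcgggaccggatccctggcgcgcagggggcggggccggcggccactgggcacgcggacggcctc

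A 1-base variant of the E-box, CACGTT, was present in Nr1d1, in 3.85% of all windows and in 4.5% of genes. None of the 14 windows held the cAMP response element TGACGTCA, the palindromic glucocorticoid response element or the ROR element core, TAGGTCA or TGGGTCA. These spellings were rare among all windows too, in 1.55%, 0.00913% and 5.38% of them. Their absence from 14 windows therefore sets the members apart from few genes. Other spellings of these elements and sites outside the windows were not searched, in Arntl or any other member. A missing match is therefore no evidence that a gene lacks the element. All motifs were searched on both strands, no match overlapped another kind of motif in the windows printed, and a match is a description of the letters and no evidence of binding.

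Per kilobase of merged exons, the outputs and the repressors of the second loop were the most abundant clock transcripts. Tef stood highest at 53.7 ± 13.8 CPM per kilobase (SD over the 4 libraries), followed by Nr1d1 at 40.0 ± 2.58 and Dbp at 35.9 ± 1.28. The ranges of Tef and Nr1d1 over the libraries overlapped, as did those of Nr1d1 and Dbp. Nr1d2 at 15.5 ± 2.37 and Ciart at 14.6 ± 1.87 CPM per kilobase formed a middle pair with overlapping ranges. Per2 at 4.01 ± 1.29, Arntl at 3.89 ± 0.679 and Per1 at 3.49 ± 0.276 CPM per kilobase overlapped in turn. Clock at 2.38 ± 0.384 and Per3 at 1.33 ± 0.214 CPM per kilobase stood lowest and apart from their neighbours. Ranges also did not overlap between Dbp and Nr1d2, between Ciart and Per2 or between Per1 and Clock.

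**Figure D1:**
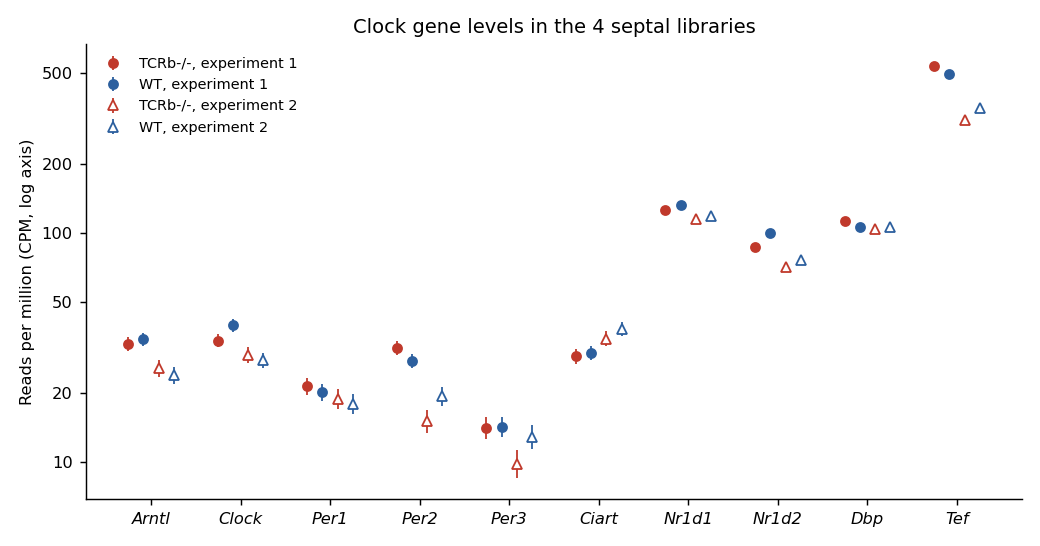
Level of each of the 10 clock genes in the 4 libraries, in CPM on a log axis, with 1 symbol per library. The symbols of experiment 2 lie below those of experiment 1 in 9 genes and above them in Ciart, while no gene has both TCRb-/- libraries beyond both WT libraries.

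The comparison the study was designed for, TCRb-/- against WT, gave no called clock gene. In no member did both TCRb-/- libraries lie on one side of both WT libraries, a pattern found in 17.8% of the 13912 genes tested. In limma with Benjamini-Hochberg adjustment over all genes, 0 of 10 members passed the threshold of 0.05, as did 0 of all genes (0% of those tested), and every member's adjusted p was 1.00. At an unadjusted p under 0.05 there were 0 members and 43 genes in all. With the experiment as a block, 2 genes passed (0.0144%), Trbc2 and Ttr, and the members' adjusted p lay between 0.848 and 0.994. The largest genotype difference among the members was that of Per3, at -0.19 (SE 0.22, or 0.14 with the block) on the log2(CPM + 1) scale. The smallest was that of Arntl, at 0.01 (SE 0.23, or 0.10 with the block). Without the block the SE also holds the difference between experiments, and Trbc2 was not called either. The median over the members was -0.07, with 3 above 0 and 7 below, beside 0.00 over all genes. With 2 pools a side an exact permutation test cannot go below p = 0.333, here or between the experiments. With so few pools a missing call in limma does not show that the genotypes were alike.

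The experiments, in contrast, did not overlap in any member. In 9 of 10 the libraries of experiment 2 lay below both of experiment 1, and in Ciart above, where 67.3% of all genes tested did not overlap between experiments (37.2% lower and 30.1% higher in experiment 2). For Dbp and Per3 the gap was within counting error in WT (intervals of the log2 difference -0.08 to 0.08 and -0.37 to 0.08). For Per1 it was within counting error in TCRb-/- (-0.38 to 0.01) and in WT (-0.36 to 0.02). In the limma fit, Per2, Tef, Arntl, Nr1d2 and Clock were lower in experiment 2 and 0 members were higher, 5 of 10 called beside 23.7% of all genes (14.7% lower and 8.95% higher). With limma moderation that leaves out the mean-variance trend, Tef alone of the members was called (adjusted p = 0.0473), and the other 4 had adjusted p between 0.0526 and 0.0998. The median difference of the members was -0.32 on the log2(CPM + 1) scale, against -0.03 over all genes. The 3292 genes called were 37.8% higher in experiment 2, a share that was 50.6% after quantile normalization. Experiments differ in the marker levels given above, and the part of those levels in the clock gene differences was not tested.

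Arntl and Clock encode the activating pair of the loop. Arntl, on the plus strand of chromosome 7 from 113207465 to 113314126 in GRCm38 (the build of all gene positions given here, each of a protein-coding gene), stood at 32.7 CPM in TCRb-/- 1 and 34.4 CPM in WT 1, against 25.7 in TCRb-/- 2 and 24.1 in WT 2. Both libraries of experiment 2 were lower by more than the gap between the genotypes, and the difference was -0.42 (SE 0.09, limma adjusted p = 0.0182). Between genotypes Arntl averaged 29.2 ± 4.97 CPM in TCRb-/- and 29.2 ± 7.32 CPM in WT (SD, n = 2). Clock, on the minus strand of chromosome 5 from 76209868 to 76304792, stood at 34.0 CPM in TCRb-/- 1, 39.6 in WT 1, 29.4 in TCRb-/- 2 and 27.9 in WT 2. It had its highest level in WT 1, and the experiments differed by -0.35 (SE 0.10, limma adjusted p = 0.0441). The call of Arntl was lost without TCRb-/- 1 (adjusted p = 0.0576) or WT 1 (0.0823). That of Clock was lost when any library was left out (limma adjusted p between 0.0505 and 0.198), and with median-of-ratios scaling (0.0589) or quantile normalization (0.0886).

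The Per genes encode the main repressors of the pair. Per2, on the minus strand of chromosome 1 from 91415982 to 91459324, stood at 31.6 CPM in TCRb-/- 1 and 27.7 CPM in WT 1, against 15.1 CPM in TCRb-/- 2 and 19.5 CPM in WT 2, from 302 to 777 reads. The lowest library was TCRb-/- 2 and the highest TCRb-/- 1, so that the WT pools lay between the TCRb-/- pools. Per2 had the largest difference between experiments among the members, -0.75 (SE 0.14, limma adjusted p = 0.0107), a ratio of 0.593. Without TCRb-/- 1 its adjusted p was 0.0578. Per1, on the plus strand of chromosome 11 from 69095217 to 69109960, stood at 21.5 CPM in TCRb-/- 1, 20.2 in WT 1, 18.9 in TCRb-/- 2 and 17.9 in WT 2. The TCRb-/- pool was the higher in each experiment by 0.09 and 0.08 log2 units, within counting error in both, and the experiments differed by -0.17 (SE 0.10, limma adjusted p = 0.268). Per3, on the minus strand of chromosome 4 from 151003652 to 151044665, stood at 14.2 CPM in TCRb-/- 1, 14.3 in WT 1, 9.86 in TCRb-/- 2 and 12.9 in WT 2. Its lowest value came from TCRb-/- 2, and the difference between experiments was -0.31 (SE 0.15, limma adjusted p = 0.165). With 1 library left out it ran from -0.49 without WT 2 (limma adjusted p = 0.0411) to -0.13 without TCRb-/- 2 (0.649).

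Ciart encodes CHRONO, a further repressor of the Arntl and Clock proteins, and was the 1 member higher in experiment 2. The gene, on the minus strand of chromosome 3 from 95878503 to 95882251, stood at 29.0 CPM in TCRb-/- 1 and 30.1 CPM in WT 1, against 34.6 CPM in TCRb-/- 2 and 38.2 CPM in WT 2. Within TCRb-/- the log2 difference was 0.25 (95% counting interval 0.10 to 0.41), and within WT it was 0.34 (0.20 to 0.49). The limma estimate was 0.29 (SE 0.09, adjusted p = 0.0555), which did not pass the threshold. Of 13 alternatives with all libraries it passed in 3. These were a filter at 10 CPM (limma adjusted p = 0.0481), median-of-ratios scaling (0.0416) and quantile normalization (0.0283). In the rest, removal of the trend on transcript length among them, it did not pass, with limma adjusted p up to 0.160. With 1 library left out the estimate ran from 0.22 to 0.36. Against Per2, counted in the same library and so free of the scaling, Ciart had a log2 read ratio of -0.12 in TCRb-/- 1 and 0.12 in WT 1, and of 1.20 in TCRb-/- 2 and 0.97 in WT 2. Ciart has fewer exon bases than Per2 (2261 against 5856), and the part of exon length in this ratio was not tested.

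Nr1d1 and Nr1d2 encode nuclear receptors that repress Arntl. Nr1d1, on the minus strand of chromosome 11 from 98767932 to 98775333, varied little, with 126 CPM in TCRb-/- 1, 133 in WT 1, 115 in TCRb-/- 2 and 118 in WT 2. Its difference between experiments was -0.15 (SE 0.07, limma adjusted p = 0.146). Nr1d2, on the minus strand of chromosome 14 from 18204054 to 18239127, stood at 86.8 CPM in TCRb-/- 1, 100.1 in WT 1, 71.0 in TCRb-/- 2 and 76.5 in WT 2. The WT pool was the higher in both experiments, and the experiments differed by -0.33 (SE 0.09, limma adjusted p = 0.0313). The call of Nr1d2 was lost without TCRb-/- 2 (adjusted p = 0.0993) or WT 1 (0.127). Exons of Thra on the opposite strand cover 8.55% of the exon bases of Nr1d1, and since the sources used here give no strand setting for the counting, reads from that stretch cannot be told apart.

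Dbp and Tef encode transcription factors of the PAR bZIP family, output genes that relay the rhythm through D-boxes, and they differed in their spread. Dbp, on the plus strand of chromosome 7 from 45705088 to 45710203, stood at 113 CPM in TCRb-/- 1, 104 in TCRb-/- 2 and 106 in both WT libraries, from 2087 to 2787 reads. The experiments differed by -0.06 (SE 0.07, limma adjusted p = 0.560). Exons of Sphk2 on the opposite strand cover 18.0% of its exon bases. Tef, on the plus strand of chromosome 15 from 81802421 to 81826863, stood at 534 CPM in TCRb-/- 1 and 495 CPM in WT 1, against 310.4 CPM in TCRb-/- 2 and 351 CPM in WT 2. It fell by 0.64 in experiment 2 (SE 0.08, limma adjusted p = 0.00515), a ratio of 0.643, and was called whichever library was left out (adjusted p at most 0.0254). Within a library the log2 read ratio of Dbp to Tef was -2.24 and -2.22 in experiment 1 (TCRb-/- and WT) and -1.57 and -1.72 in experiment 2. Dbp has fewer exon bases than Tef (2993 against 7867), and the part of exon length in this ratio was not tested.

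**Figure D2:**
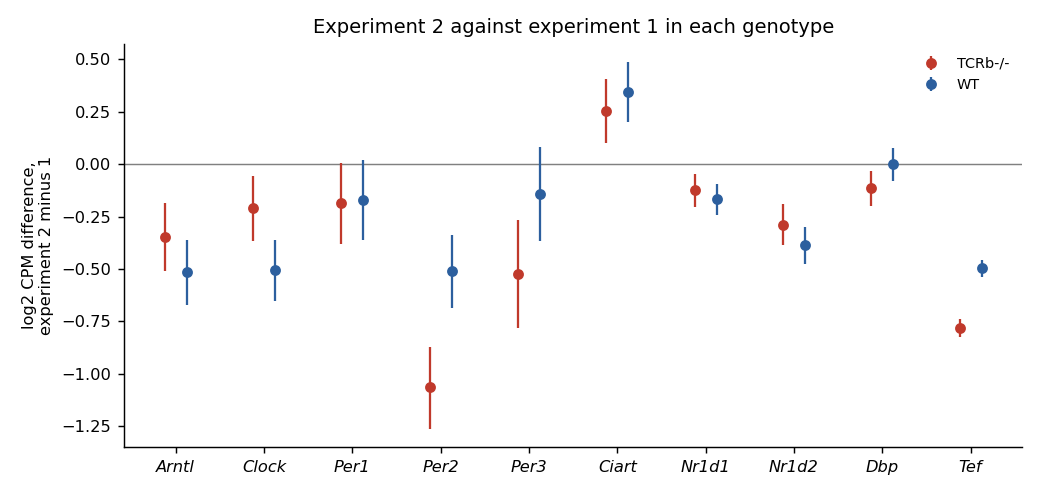
Difference of each clock gene between experiment 2 and experiment 1 on the log2 CPM scale, separately in TCRb-/- and in WT, with bars for the 95% counting interval of the reads. Both genotypes lie below 0 in 9 genes and above 0 in Ciart, and Per2 in TCRb-/- is the lowest point at -1.06.

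Ratios between members within a library moved with the experiment as well. The log2 ratio of Nr1d1 to Arntl reads, a repressor over its target, was 1.94 in TCRb-/- 1 and 1.95 in WT 1, and 2.16 in TCRb-/- 2 and 2.30 in WT 2. For Dbp over Arntl it was 1.79 and 1.63 in experiment 1 (TCRb-/- and WT) and 2.02 and 2.14 in experiment 2. The log2 ratio of Per1 to Per2 reads was -0.55 and -0.46 in experiment 1, and 0.32 and -0.12 in experiment 2. In these 3 ratios the experiments did not overlap, while the genotypes did. Nr1d1 and Dbp have fewer exon bases than Arntl (3077 and 2993 against 7523), while Per1 and Per2 are alike (5631 and 5856). The part of exon length in these ratios was not tested. The ratio of Per2 to Arntl reads did not separate the experiments, with -0.05 in TCRb-/- 1, -0.31 in both WT libraries and -0.77 in TCRb-/- 2.

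Within each experiment the genotypes could be set side by side with 1 library each, without a test. In 5 members the difference had the same sign in both experiments and in 5 the opposite sign, where 51.6% of all genes kept their sign. The 95% counting interval excluded 0 in 6 of 10 members in experiment 1 and in 4 in experiment 2, beside 37.7% and 31.6% of all genes tested. Nr1d2 was lower in TCRb-/- in both, by -0.21 (-0.29 to -0.12) and -0.11 (-0.21 to -0.01). Per3 differed by -0.01 (-0.23 to 0.20) in experiment 1 and by -0.39 (-0.66 to -0.12) in experiment 2. The intervals cover counting error only, since amplified reads carry no molecular identifier and can repeat a molecule, and they hold nothing of the spread between pools.

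**Figure D3:**
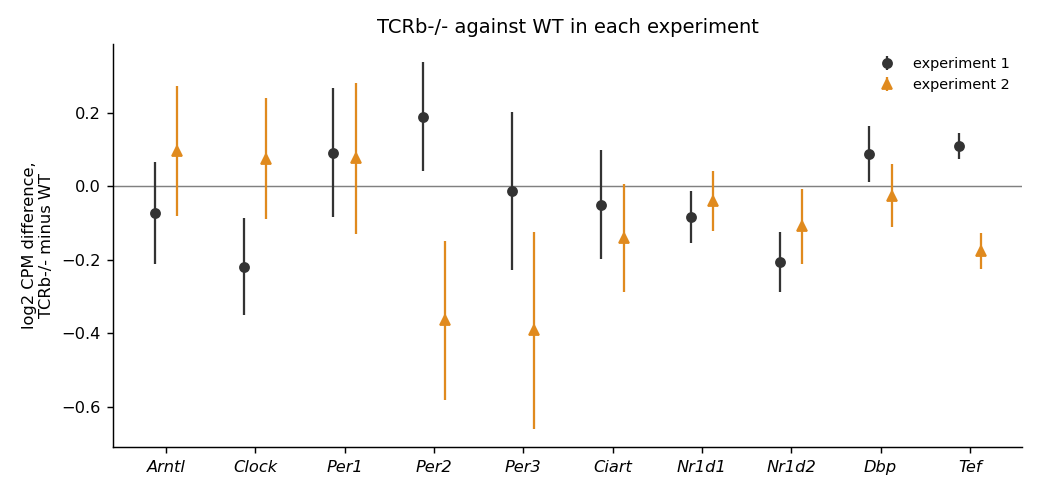
TCRb-/- minus WT difference of each clock gene on the log2 CPM scale in experiment 1 and in experiment 2, with 95% counting intervals of 1 library a side. Per2 and Tef have intervals above 0 in experiment 1 and below 0 in experiment 2, and Nr1d2 has both below 0.

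The order of the libraries in striatal marker level was TCRb-/- 1, WT 1, WT 2, TCRb-/- 2. Per2, Dbp and Tef showed the same order, 3 of the 10 members, as did 12.9% of all genes tested. For Dbp that order was within counting error between WT 1 and WT 2 and between WT 2 and TCRb-/- 2. The summed thalamic level was higher in both libraries of experiment 2, and its order TCRb-/- 2, WT 2, TCRb-/- 1, WT 1 was shown by 0 members and 10.2% of all genes. In bulk tissue, fewer cells of a type and less RNA per cell cannot be told apart.

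Other genes of the loop and its regulators were followed as a list of 25, of which 6 were lower and 2 higher in experiment 2 in the limma fit, with a median difference of -0.07. Of all genes tested 14.7% were called lower and 8.95% higher. Npas2, a paralogue of Clock that also pairs with the Arntl protein, stood at 72.7 CPM in TCRb-/- 1 and 58.2 in WT 1, against 27.5 in TCRb-/- 2 and 31.6 in WT 2. It had the largest fall of the list, -1.12 (SE 0.12, limma adjusted p = 0.00400), and its log2 read ratio to Clock went from 1.10 and 0.56 in experiment 1 (TCRb-/- and WT) to -0.09 and 0.18 in experiment 2. Npas2 has fewer exon bases than Clock (4791 against 13727), and the part of exon length in this ratio was not tested. Cry2, a partner of the PER proteins, stood at 228 and 222 CPM in experiment 1 and at 163 and 153 CPM in experiment 2 (limma adjusted p = 0.00534). Its paralogue Cry1 stood at 52.6 and 48.7 CPM in experiment 1 and at 41.2 and 46.7 CPM in experiment 2, with a difference of -0.20 (SE 0.09, limma adjusted p = 0.143). Hlf, the third PAR bZIP factor, fell by 0.38 in experiment 2 (limma adjusted p = 0.00907). Csnk1d, a kinase of the PER proteins, and Btrc, which targets them for degradation, differed by -0.35 and -0.24 (limma adjusted p = 0.00890 and 0.0276). The related Csnk1e, at -0.07, and Fbxw11, at -0.19, were not called (limma adjusted p = 0.501 and 0.0746). Rora, an activator of Arntl, was higher, with 52.4 and 60.8 CPM in experiment 1 and 111 and 73.4 CPM in experiment 2 (0.66, SE 0.17, limma adjusted p = 0.0295), as was Tipin, the partner of Timeless (0.32, limma adjusted p = 0.0348). The calls of Npas2, Cry2, Hlf and Csnk1d held with any library left out. That of Rora was lost without TCRb-/- 1 (limma adjusted p = 0.126) or WT 1 (0.0611), and those of Btrc (0.0677 to 0.0983) and Tipin (0.0635 to 0.127) whichever library was left out. Npas2, Cry1 and Csnk1d, 3 of the 25, showed the order of the libraries in striatal marker level, as did 12.9% of all genes tested. For Cry1 and Csnk1d some steps of that order were within counting error. The part of striatal marker levels in the fall of Npas2 was not tested. By genotype 0 of the 25 passed.

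**Figure D4:**
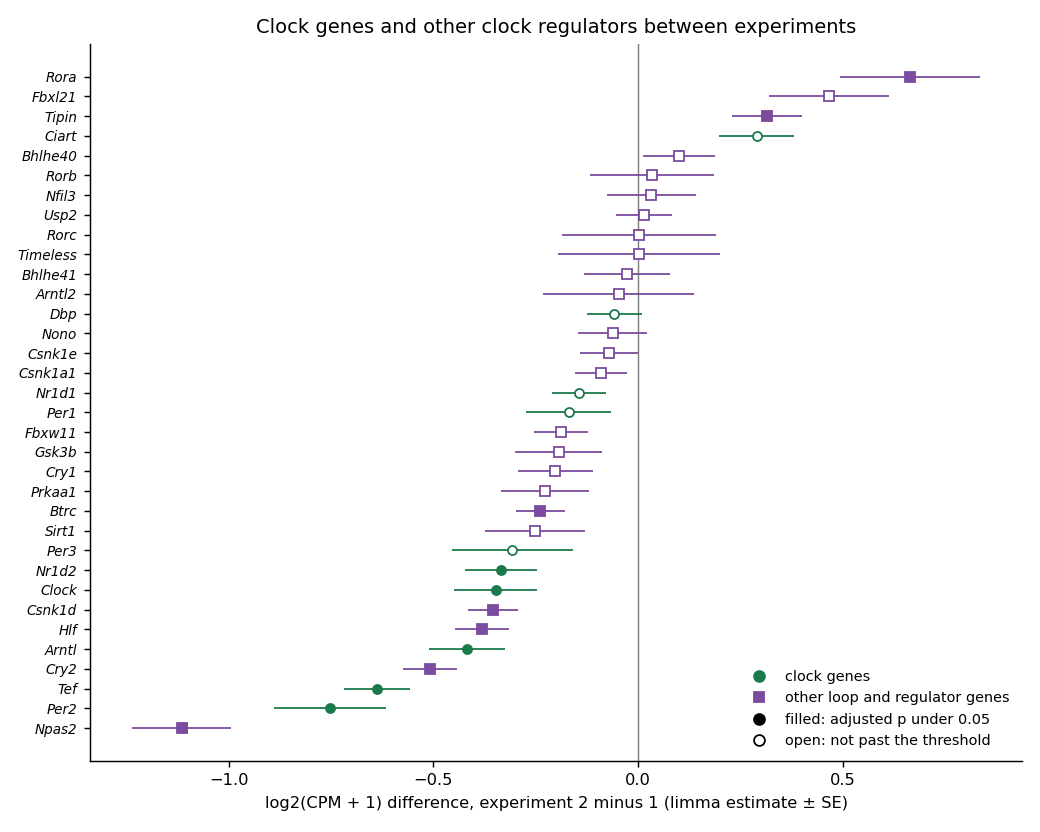
Limma estimates (± SE) of the difference between experiment 2 and experiment 1, on the log2(CPM + 1) scale, for the 10 clock genes and for other loop and regulator genes. Filled symbols passed an adjusted p of 0.05; they run from Npas2 at -1.12 to Rora at 0.66, and the 5 filled clock genes all lie below 0.

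Of a list of 10 clock output genes, 4 were called higher and 0 lower in experiment 2, beside 8.95% and 14.7% of all genes tested. The other 6 were not called, and the median was 0.08, with 6 genes above 0 and 4 below. Avp, the vasopressin gene of hypothalamic and septal circuits, stood at 5.74 and 9.19 CPM in experiment 1 and at 104 and 57.8 CPM in experiment 2 (3.24, SE 0.28, limma adjusted p = 0.00255). Cirbp, a cold-inducible RNA-binding protein gene, stood at 179 and 193 CPM in experiment 1 and at 246 and 239 CPM in experiment 2 (limma adjusted p = 0.00915). Rbm3, also cold-inducible, and Tspan4 were higher by 0.32 and 0.52 (limma adjusted p = 0.0370 and 0.0207). With 1 library left out, Avp and Cirbp kept their calls. Rbm3 lost its own unless WT 1 was the library left out, with limma adjusted p up to 0.149. Tspan4 lost its own unless WT 2 was the library left out, with limma adjusted p up to 0.0913.

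Genes that respond to stress were set beside the clock genes because both genotypes had been restrained. Of 10 activity-induced genes, 5 were lower and 1 higher in experiment 2, with a median of -0.38. Of 11 glucocorticoid-induced genes 2 were lower, Klf9 and Fkbp5, and 0 higher, with a median of -0.07. Of all genes tested 14.7% were called lower and 8.95% higher. Fos was the higher one, at 32.5 and 41.6 CPM in experiment 1 and 49.7 and 48.8 CPM in experiment 2 (0.41, limma adjusted p = 0.0399), a call lost without TCRb-/- 1 (0.141) or TCRb-/- 2 (0.0639). Nr4a1, another early-response gene, differed by -0.51 (limma adjusted p = 0.105, and 0.0235 with the replicate block, or 0.111 with the block and moderation without a trend). With 1 library left out it ran from -0.86 without WT 2 (limma adjusted p = 8.86e-05) to -0.15 without TCRb-/- 2 (0.433). Fkbp5, a glucocorticoid receptor co-chaperone, stood at 89.0 and 66.3 CPM in experiment 1 and at 59.1 and 55.2 CPM in experiment 2 (-0.42, limma adjusted p = 0.04998), a call at the edge of the threshold. Of 13 alternatives with all libraries, Fkbp5 was called in 1, the replicate block (limma adjusted p = 0.0177), and in the rest the adjusted p ran from 0.0502 to 0.262. It was also lost without TCRb-/- 1 (limma adjusted p = 0.173) or WT 2 (0.0568). Klf9 stood at 214 and 252 CPM in experiment 1 and at 138 and 161 CPM in experiment 2 (-0.63, SE 0.10, limma adjusted p = 0.00806). Sgk1 and Tsc22d3, both glucocorticoid targets, differed by -0.04 and 0.09 (limma adjusted p = 0.685 and 0.480). By genotype 0 genes of either list passed, and their medians were -0.18 and 0.11.

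Differences between the experiments went with transcript length across the whole table, and the clock genes differ in length. The rank correlation between the exon length of a gene and its difference between experiments was -0.398 over 13574 genes, a description across genes, which share the 4 libraries and are not replicates. Clock, with 13727 exon bases, lies in the longest of 10 length classes of equal size, whose median difference was -0.21 and of which 29.3% were called lower. Tef (7867 bases) and Per3 (9608 bases) lie in a class with a median of -0.18, Arntl in one with a median of -0.14, and Per1, Per2 and Nr1d2 in one with a median of -0.10. Dbp and Nr1d1 are short, in a class with a median of 0.07. The shortest member, Ciart (2261 bases), lies in a class with a median of 0.12, of which 3.54% were called lower. With the trend on length removed, an alternative chosen after seeing the data, Tef differed by -0.47 (limma adjusted p = 0.0120) and Per2 by -0.63 (0.0219). Arntl was then at -0.25 (limma adjusted p = 0.0988), Nr1d2 at -0.22 (0.120) and Clock at -0.11 (0.460), and 2 members were called in place of 5.

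**Figure D5:**
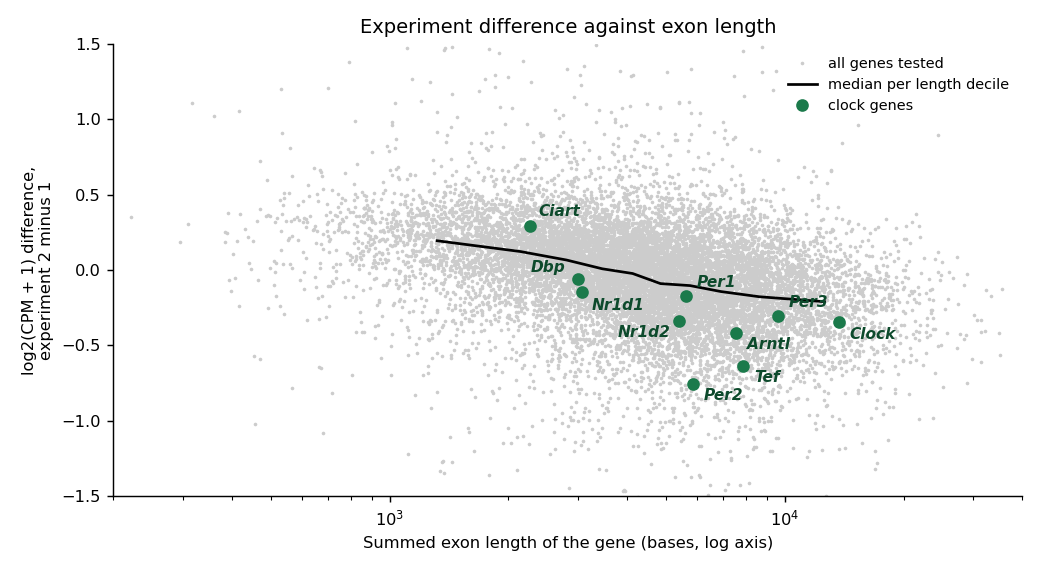
Difference between experiment 2 and experiment 1 (limma estimate, log2(CPM + 1) scale) against exon length in bases on a log axis, with all genes in grey, the median of each of 10 length classes as a line and the 10 clock genes marked. The line runs from above 0 for short genes to -0.21 for the longest class, and Per2 and Tef lie farthest below it among the members.

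Profiles over the 4 libraries were also compared with 9815 genes of at least 10 CPM, by the root-mean-square distance of centred log2(CPM + 1) values. The nearest to Dbp were Mia3, Fam207a and Ehd1, at 0.00783, 0.00785 and 0.00799. The nearest to Arntl were Map3k7, Cntn2 and Nfxl1, at 0.00577, 0.00883 and 0.00906. With 4 libraries such likeness is a description.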

How the data were processed

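RNA was sequenced from 4 libraries of pooled septal tissue, 2 per genotype. Per the labels' protocols, RNA came from a cleared tissue lysate, libraries were made with the SMARTer Ultralow kit and they were sequenced on a HiSeq2500. Per the submitters' processing notes, HISAT2 2.1.0, SAMtools 1.3, HTSeq 0.9.1, R 4.0.5, limma 3.46.0 and the build mm10 were used, with roles and order not stated. The sources used here give no annotation, strand setting or rule for keeping rows.

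The deposited values were log2 values, 1 file per library with 15426 rows, of which 17 were ERCC spike-ins and were left out (0.0160% to 0.0244% of the reads). Each was the log2 of CPM after adding 0.5 to the gene's reads and 1 to the total, and solving for the total gave whole reads for 100% of the values within 0.001 reads. A count of 0 allows 3 reads, 0.114 to 0.150 CPM. Log2(CPM + 1) was computed from these reads, which understates the change of low genes, and the 13912 genes whose mean reached 1 CPM were tested with limma 3.58.1 in R 4.3.3 (trended empirical Bayes moderation, two-sided, Benjamini-Hochberg over all genes, threshold 0.05). The terms were genotype alone or experiment alone. Since the deposited unit is log2, no count model was the main test, and voom weights in limma served as the alternative that uses the recovered reads. Counting intervals are at 95%. Exon lengths and positions came from GENCODE on GRCm38, and Python 3.11.15 was used for the rest. The gene annotation need not be the one the reads were counted with.

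The replicate number is the experiment, a batch in the labels, so libraries with 1 number are paired. Across genes, their deviations from the mean of their genotype had a correlation of 0.72. Nothing in the labels says that the pools came from separate litters, so p-values measure the spread between these pools. The clock genes and all lists were chosen with earlier results of these data known. All members were named whatever their values. Of the lists of other loop genes and of outputs, genes past the threshold were named, at most 8 each, and Cry1 was named in addition after its values were seen. For 1 gene of the list of other loop genes, counted with its list, the values are not reported here. Fos, Nr4a1, Fkbp5, Sgk1, Tsc22d3 and Trbc2 were named by rule, as were the 3 genes nearest in profile to Dbp and to Arntl. Klf9 was named in addition after its values were seen. Alternatives were pseudocounts of 0.1 and 5 CPM, no filter or 10 CPM, median-of-ratios scaling, quantile normalization, moderation without a trend, voom weights, the deposited values, the block and leaving out each library.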

Additional observations from a re-analysis of the deposited data

Results flagged for a closer look

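In 5 clock genes the genotype difference pointed in opposite directions in the 2 experiments, with 1 library a side, and the change between experiments was not tested. The genotype difference in experiment 2 minus that in experiment 1, in log2 CPM, was -0.56 for Per2, -0.29 for Tef, -0.11 for Dbp, 0.17 for Arntl and 0.29 for Clock. For Per2 (0.19, interval 0.04 to 0.34, then -0.36, interval -0.58 to -0.15) and Tef (0.11, interval 0.08 to 0.15, then -0.18, interval -0.22 to -0.13) the 95% counting interval excluded 0 in both experiments. For Dbp and Clock it did so in experiment 1, and for Arntl in neither. Such intervals cover counting error only. Among all genes tested 51.6% had the same sign in both experiments, as did the other 5 members. Striatal markers summed to 2679 against 2410 CPM (TCRb-/- against WT) in experiment 1 and to 567 against 1385 CPM in experiment 2, and their part in these differences was not tested.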

How the results depend on the processing

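With all libraries kept, 635 of 724 recomputed values kept their direction and side of the threshold, 56 lost a call, 9 gained one, 18 counts moved by over 1.5 times and 6 turned. With 1 library left out, 138 of 212 kept both, and the lone library of an arm was then assumed to vary like the others. The 5 clock genes called between experiments became 1 with moderation without a trend, 0 with that and the replicate block, 2 with the length trend removed (with or without the block), and 2 to 5 with 1 library left out (2 without TCRb-/- 1 or WT 1, 3 without TCRb-/- 2). The 3292 genes called in all became 629 with moderation without a trend, 0 with that and the replicate block, and 1406 to 3390 with 1 library left out. The clock genes called by genotype stayed at 0 under every alternative run, and the genes called by genotype, 0 in all, became 2 with the replicate block, alone or with median-of-ratios scaling or quantile normalization, 11 with the block and the length trend removed, and 0 to 47 with 1 library left out (47 without TCRb-/- 1 and 1 without TCRb-/- 2). The block changed no call of a clock gene in either comparison unless moderation had no trend, where Tef, called without the block, had a limma adjusted p of 0.0679.

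Without the length trend, with or without the block, the differences between experiments of Btrc and Sgk1 and the median of the other loop and regulator genes turned to 0.0191, 0.0499 and 0.0191. Leaving out 1 library turned the genotype differences of all members, none of them called. They ran from -0.24 to 0.26 for Arntl, -0.32 to 0.18 for Clock, -0.0084 to 0.17 for Per1, -0.59 to 0.43 for Per2, -0.43 to 0.0556 for Per3, -0.26 to 0.0746 for Ciart, -0.14 to 0.0227 for Nr1d1, -0.35 to 0.0363 for Nr1d2, -0.0253 to 0.0891 for Dbp and -0.42 to 0.36 for Tef. Between experiments Sgk1 ran from -0.0933 to 0.0093 and Tsc22d3 from -0.0349 to 0.22. By genotype the medians ran from -0.24 to 0.0988 for the clock genes, -0.0717 to 0.0422 for the output genes and -0.15 to 0.0254 for the other loop and regulator genes. The cause of these changes was not tested. Depth and replicate number limit the genotype comparison, which had 2 pools per genotype and a single library a side within each experiment, and the smallest difference it could detect was not tested.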

Other observations

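The suprachiasmatic nucleus, the master clock of the brain, lies in the hypothalamus below the septum, and 8 marker genes of it and its surroundings were followed as a check of the dissection. Their summed level was 90.9 CPM in TCRb-/- 1 and 104 CPM in WT 1, and 216 CPM in TCRb-/- 2 and 159 CPM in WT 2. Most of that difference came from Avp, and without it the other 7 summed to 85.1 and 95.04 CPM in experiment 1 (TCRb-/- and WT) and to 112 and 101 CPM in experiment 2. Most of this sum was Six3, which also counts among the striatal markers. Six3 stood at 55.7 and 58.1 CPM in experiment 1 and at 59.0 and 66.7 CPM in experiment 2. Of the 7 tested in limma, Avp and Nms were called higher in experiment 2 and Vip lower. Vip, a peptide of that nucleus and of cortical interneurons, stood at 7.52 and 9.54 CPM in experiment 1 and at 3.20 and 3.62 CPM in experiment 2 (-1.10, limma adjusted p = 0.00697). These genes were named after their values were seen.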
